A study of Rattus norvegicus with 6 samples.

Results

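The transcripts described here are those of 10 genes at the core of the NF-kB system, which are the subunits Nfkb1, Nfkb2, Rela and Relb, the inhibitors Nfkbia, Nfkbib and Nfkbiz, the feedback genes Tnfaip3 and Birc3, and the kinase gene Ikbke. They were taken by symbol from the deposited gene table, where they are 10 of 40154 rows, and all 10 passed the filter on low counts and were among the 14852 genes tested. The mRNA was sequenced from atrial fibroblasts of 1- to 3-day-old Sprague-Dawley rats, which were freed of atrial myocytes by preplating. The fibroblasts were transfected with si-NC, a control siRNA, or with si-GPD1L, directed at the transcript of Gpd1l, and cultured for 24 h, with 3 libraries in each group. All 6 libraries carry the same treatment label, Atrial differentiation, which the labels do not explain. Whether the 3 libraries of a group came from separate cultures, and whether the digit ending a si-GPD1L name marks a replicate or a different siRNA, is not stated, so p-values measure only the spread between these libraries. The comparison of si-GPD1L with si-NC was used to ask whether transcripts of the NF-kB system changed alongside the interferon-stimulated genes, whose counts were raised in libraries labelled si-GPD1L.

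NF-kB factors are pairs of subunits that bind a short DNA element, the kappaB site. In resting cells inhibitor proteins hold them in the cytoplasm, until signals from tumor necrosis factor, interleukin-1, Toll-like receptors or sensors of double-stranded RNA activate the IKK kinases, which mark the inhibitors for degradation. The freed factors switch on inflammatory genes and, among them, genes of their own inhibitors, so that the transcripts of Nfkbia and Tnfaip3 are widely used as a readout of NF-kB activity. In fibroblasts the same system drives the production of cytokines and chemokines. Interferon-stimulated genes are read through a different DNA element, which STAT and IRF factors bind.

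The promoters show which of these elements lie close to the gene starts. Sequences of 300 bases, 250 before and 50 after the start, were available from RefSeq (build GRCr8) for 7 of the 10 genes, all but Relb, Birc3 and Ikbke, and were searched on both strands. The kappaB consensus was found in 5 of these 7, those of Nfkb1, Nfkb2, Nfkbia, Nfkbiz and Tnfaip3, and not in the windows of Rela and Nfkbib. It was found in 7.51% of all 33469 promoters and in 10% of the 11769 promoters of genes tested. Neither GAAA repeated after any 2 bases, the core of an interferon-stimulated response element (ISRE), nor TTCNNNGAA, the element bound by STAT dimers, was found in any of the 7 windows. They were found in 3.92% and 8.87% of all promoters, and in 2.96% and 7.12% of those of genes tested. With elements this rare, 7 windows may well hold none. The 250 bases before the start are printed for Nfkbia and Tnfaip3, the inhibitor and the feedback gene most used as readouts, with the kappaB matches in capitals.
Nfkbia, chr6:78597073-78597322, minus strand: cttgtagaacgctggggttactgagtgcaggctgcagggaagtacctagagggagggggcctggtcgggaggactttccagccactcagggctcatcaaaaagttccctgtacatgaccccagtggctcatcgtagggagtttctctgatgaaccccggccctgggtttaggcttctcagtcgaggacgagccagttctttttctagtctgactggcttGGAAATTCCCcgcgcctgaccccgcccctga
Tnfaip3, chr1:15543980-15544229, minus strand: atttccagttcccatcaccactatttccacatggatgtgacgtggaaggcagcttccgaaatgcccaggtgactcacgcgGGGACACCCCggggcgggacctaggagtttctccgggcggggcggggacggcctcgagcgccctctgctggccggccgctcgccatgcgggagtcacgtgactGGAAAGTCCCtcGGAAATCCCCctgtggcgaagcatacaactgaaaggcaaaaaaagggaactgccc
The match of Nfkbia begins at -31 from the gene start, and the 3 matches of Tnfaip3 begin at -170, -67 and -55. The 3 matches of Tnfaip3 do not overlap each other. A match is a string of letters and was not tested for binding.

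The windows of genes of the interferon response differ in the ISRE core and the kappaB consensus. Of the 20 listed interferon-stimulated genes with a promoter in the table, 13 held the ISRE core, 1 the kappaB consensus and 4 TTCNNNGAA. Of 29 windows of listed NF-kB target genes, 3 held the ISRE core, 10 the kappaB consensus and 6 TTCNNNGAA. Oasl2, a member of the oligoadenylate synthetase family, is shown as an example with its ISRE core, read on the opposite strand, in capitals. Cxcl10, a chemokine known to respond to both systems, is shown because its window holds the ISRE core at -243 as well as the kappaB consensus at -187, -128 and -127, of which the last 2 overlap. Irf1, a transcription factor of both systems, is shown with a TTCNNNGAA match at -142 and a kappaB match at -65.
Oasl2, chr12:47383186-47383435, minus strand: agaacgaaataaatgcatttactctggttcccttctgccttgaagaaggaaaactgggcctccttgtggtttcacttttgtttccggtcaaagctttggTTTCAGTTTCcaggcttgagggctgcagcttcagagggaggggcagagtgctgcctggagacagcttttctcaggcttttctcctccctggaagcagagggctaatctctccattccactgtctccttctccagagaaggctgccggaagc
Cxcl10, chr14:15988816-15989065, plus strand: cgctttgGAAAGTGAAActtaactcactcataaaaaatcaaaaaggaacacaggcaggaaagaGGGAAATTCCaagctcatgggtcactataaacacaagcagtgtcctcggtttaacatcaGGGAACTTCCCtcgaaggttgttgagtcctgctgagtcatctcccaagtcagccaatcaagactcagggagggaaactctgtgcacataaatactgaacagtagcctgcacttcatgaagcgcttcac
Irf1, chr10:38417685-38417934, plus strand: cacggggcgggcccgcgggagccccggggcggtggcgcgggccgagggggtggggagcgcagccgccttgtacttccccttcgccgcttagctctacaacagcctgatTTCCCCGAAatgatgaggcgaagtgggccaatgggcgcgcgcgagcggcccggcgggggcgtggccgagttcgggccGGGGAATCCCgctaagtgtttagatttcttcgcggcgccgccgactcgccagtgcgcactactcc

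**Figure D1:**
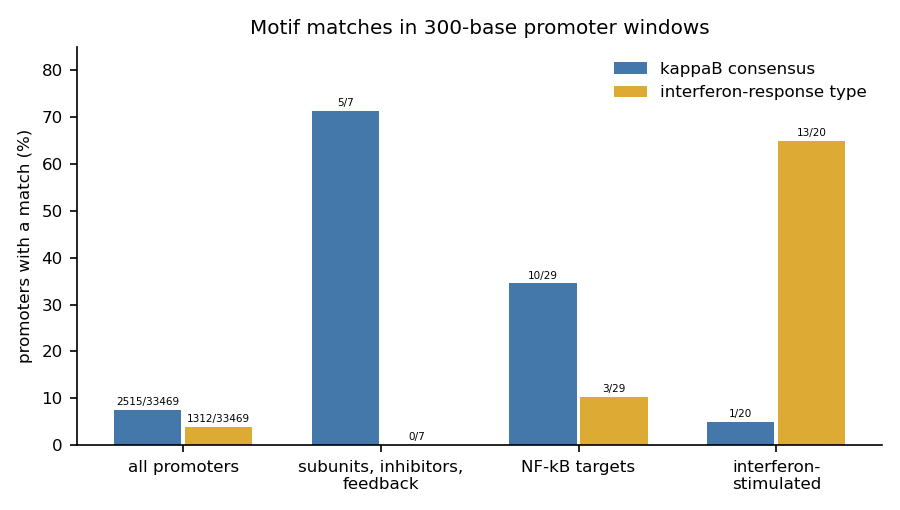
Bars give the percentage of 300-base promoter windows with at least 1 match, for all promoters in the table and for those of 3 gene lists, with the number of promoters above each bar. The kappaB consensus stands in 5 of 7 windows of the NF-kB subunits, inhibitors and feedback genes, and the interferon-response type in 13 of 20 windows of interferon-stimulated genes.

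The gene counts summed to between 16892255 and 20149732 per library. The gene targeted by the siRNA, Gpd1l, had normalized counts of 262, 332 and 313 in si-NC and of 220.2, 208 and 302 in the libraries labelled si-GPD1L, so that the library labelled si-GPD1L replicate 3 lay inside the si-NC range (log2 fold change -0.31 with a standard error, SE, of 0.15, adjusted p = 0.234 by edgeR's quasi-likelihood test, and two-sided p = 0.2 by an exact permutation test, which cannot go below 0.1 here). All 10 listed fibroblast markers were detected, with 2 lower (Dcn and Lum) and 0 higher. Markers of other cells were present as well. The summed normalized counts of 10 cardiomyocyte markers were 37264 to 39265 in the control libraries and 33868 to 37094 in the others, with 1 lower. Those of 8 smooth muscle and pericyte markers were 12168 to 14592 and 12193 to 13880, with 1 higher and 1 lower. Of these 8, 7 had a log2 fold change below 0 and 4 an unadjusted p under 0.05, beside 22.4% of all genes tested. The DESeq2 Wald test and edgeR's exact test each called 4 of them. Macrophage markers, of which all 16 were tested, had sums of 3434 to 3732 and 2919 to 4167, and none passed the edgeR test (1 had an unadjusted p under 0.05, the DESeq2 Wald test called 0 and edgeR's exact test 1). Endothelial markers had sums of 1990 to 2468 in the control libraries and 2774 to 2883 in the others, and 5 of the 11 tested rose. The shares called over all genes tested were 4.03% as higher and 2.33% as lower. None of these marker genes was at 0 counts in every library. In bulk RNA, fewer cells of a type and less RNA per cell cannot be told apart.

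Levels of different genes were compared as normalized counts per kilobase of gene length. In si-NC, Rela had the highest level, with 526 ± 14.9 (SD, n = 3), followed by Nfkb1 with 387 ± 11.8 and Nfkbia with 239.6 ± 12.2. These 3 genes did not overlap with each other or with the next gene in any si-NC library. Nfkb2 (174.01 ± 14.4), Nfkbib (162 ± 26.7), Nfkbiz (143 ± 25.1), Relb (113 ± 10.04) and Ikbke (106 ± 16.7) formed a run in which each gene overlapped with its neighbor. Tnfaip3 with 24.7 ± 2.93 and Birc3 with 16.1 ± 1.66 were the least abundant and did not overlap with each other. The order in si-GPD1L was the same except that Nfkbiz (157 ± 8.92) stood above Nfkbib (154 ± 12.6), and the ranges of this pair overlapped. Of the summed level of the 10 genes, Rela made up 27.8% ± 0.707 in si-NC and 28.6% ± 1.87 in si-GPD1L, and Nfkb1 20.4% ± 0.459 and 19.9% ± 0.609 (SD, n = 3 in each group). Rela and Nfkb1, the subunits of the canonical pathway, thus had the highest levels per kilobase of the 10 genes in both groups.

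**Figure D2:**
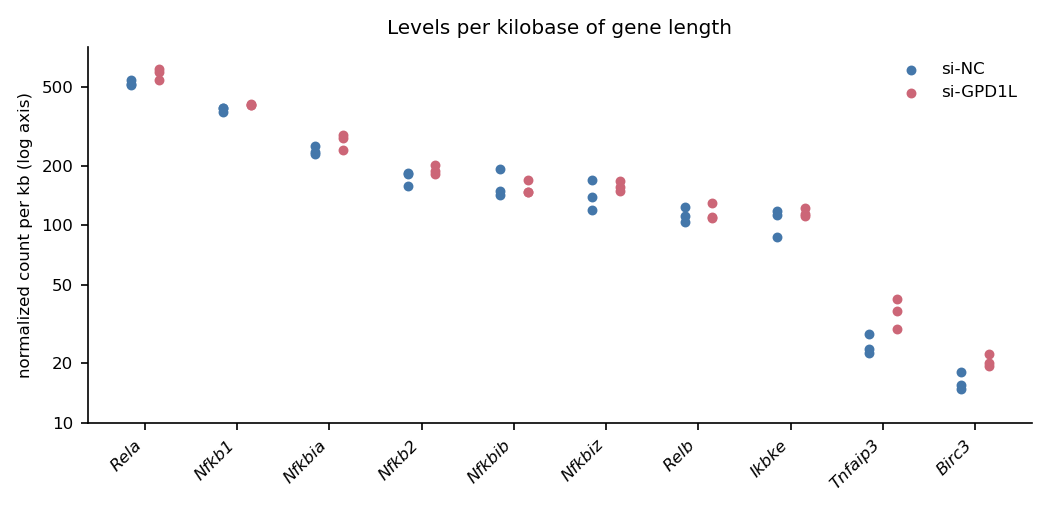
Each point is 1 library, with the normalized count per kilobase of gene length on a log axis and genes ordered by their mean in si-NC. Rela and Nfkb1 stand highest and Tnfaip3 and Birc3 lowest in both groups, and the points of the 2 groups lie close together for most genes.

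Between the groups, 1 of the 10 transcripts was called, and this call was lost in 5 of 14 alternatives. Tnfaip3, which encodes a ubiquitin-editing enzyme that shuts NF-kB signaling down, rose 1.47-fold in the libraries labelled si-GPD1L. The other 9, among them all 4 subunits and the 3 inhibitors, did not pass an adjusted p of 0.05, and none of the 10 also reached an absolute log2 fold change of 1. Over all genes tested, 6.36% passed an adjusted p of 0.05, 4.03% as higher and 2.33% as lower, and 1.62% passed both thresholds. For a list of 10 genes, 1 call is near the share of 6.36%. Although 9 of the 10 log2 fold changes were above 0, where 49.1% of all genes were, they were small, with a median of 0.137 and a range from -0.065 for Nfkbib to 0.56 for Tnfaip3. The median over all genes tested was -0.0049, with quartiles at -0.15 and 0.15. The 2 groups did not overlap for 4 of the 10 genes, Nfkb1, Rela, Tnfaip3 and Birc3, each higher in si-GPD1L, beside 15.1% of all genes tested. An unadjusted p under 0.05 was found for 3 of the 10, Rela, Tnfaip3 and Birc3, beside 22.4% of all genes tested. Summed over the 10 genes, normalized counts were 5484, 5709 and 5730 in si-NC and 6081, 6402 and 6061 in si-GPD1L, a ratio of 1.096.

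**Figure D3:**
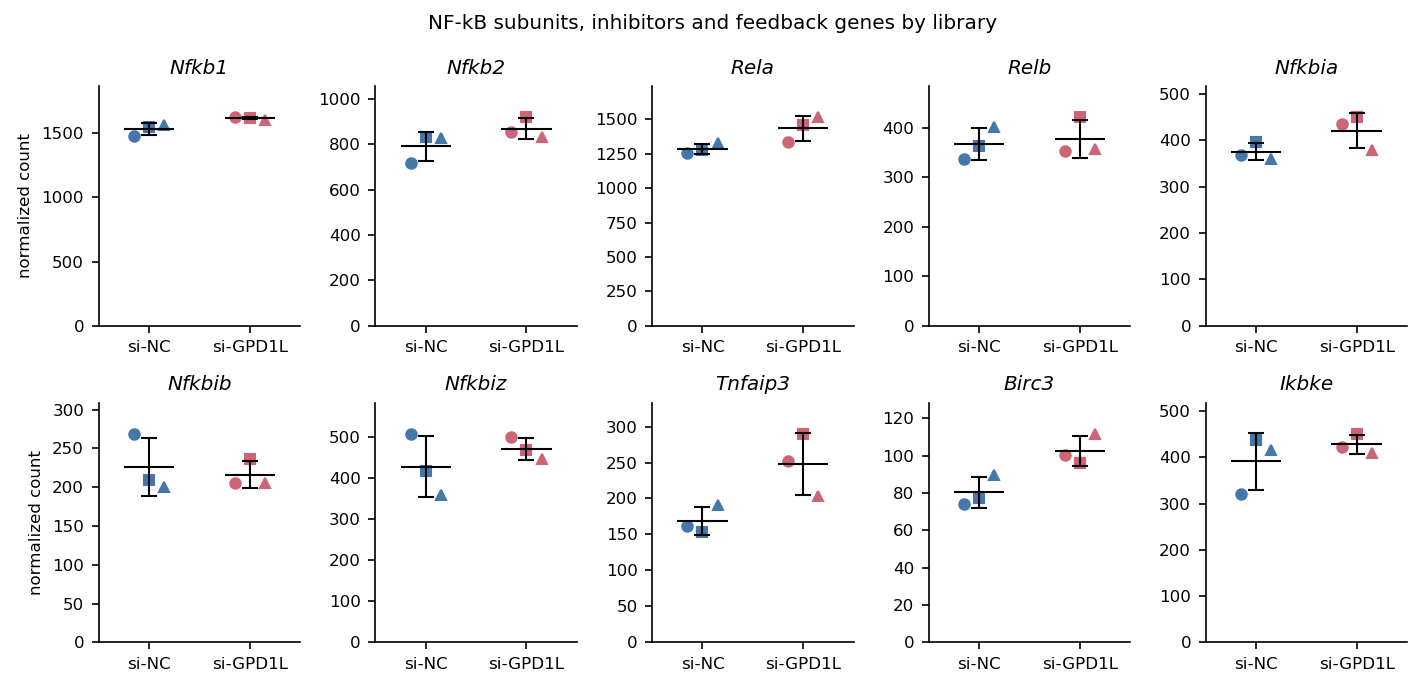
Normalized counts of each gene by library, with the mean and SD of 3 libraries as bars and replicates 1, 2 and 3 as circle, square and triangle. The axis of each gene starts at 0, and the libraries of the 2 groups do not overlap for Nfkb1, Rela, Tnfaip3 and Birc3 and overlap for the other 6 genes.

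Of the subunits, Nfkb1 encodes a precursor that is processed to the partner of Rela. Its locus lies on chromosome 2 from 240773520 to 240890053 on the minus strand (NCBI gene 81736), in the coordinates of the deposited table, for which the submitters' notes name the build rn6. The normalized counts of Nfkb1 were 1477, 1550.1 and 1563 in si-NC and 1623, 1619 and 1606 in si-GPD1L. All si-GPD1L libraries were above all si-NC libraries, but by little (log2 fold change 0.079 with SE 0.065, adjusted p = 0.517 by edgeR's quasi-likelihood test). Rela, which carries the main activating domain (chromosome 1, 220992770 to 221003249, plus strand, NCBI gene 309165), had 1254, 1275 and 1324 in si-NC and 1337, 1454 and 1513 in si-GPD1L. The groups were again apart without overlap, at a log2 fold change of 0.16 (SE 0.072, adjusted p = 0.215 by the same test).

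For the subunits of the non-canonical pathway the libraries of the 2 groups overlapped. Nfkb2 encodes the precursor that pairs with Relb (chromosome 1, 266050634 to 266059277, plus strand, NCBI gene 309452). Its normalized counts were 715, 831 and 825 in si-NC and 855, 918 and 830.4 in si-GPD1L, so that the lowest si-GPD1L library was just under the highest si-NC library (log2 fold change 0.14 with SE 0.083, adjusted p = 0.366 by edgeR's quasi-likelihood test). Relb (chromosome 1, 80517081 to 80545019, minus strand, NCBI gene 100360982) had 337, 363 and 402 in si-NC and 353, 422 and 358 in si-GPD1L. The libraries of both groups were mixed, and the log2 fold change was 0.042 (SE 0.11, adjusted p = 0.859 by the same test). Its direction turned without si-NC replicate 1 or without si-GPD1L replicate 2.

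Of the inhibitors, Nfkbia encodes IkB-alpha, which is made again within a short time of NF-kB activation (chromosome 6, 76267227 to 76270457, minus strand, NCBI gene 25493). Its normalized counts were 369, 397 and 360.1 in si-NC and 434, 449 and 378 in si-GPD1L. Replicates 1 and 2 of si-GPD1L were above all si-NC libraries and replicate 3 was not, with a log2 fold change of 0.16 (SE 0.098, adjusted p = 0.348 by edgeR's quasi-likelihood test). Nfkbib encodes IkB-beta (chromosome 1, 86941073 to 86948845, minus strand, NCBI gene 81525) and had 269, 209 and 200.1 in si-NC and 206, 236 and 206 in si-GPD1L. It was the only gene of the 10 with a negative log2 fold change, -0.065 (SE 0.13, adjusted p = 0.821 by the same test), and without si-NC replicate 1, the library with its highest count, the value was 0.079. Nfkbiz encodes an atypical nuclear inhibitor that also helps to induce Il6 (chromosome 11, 47243342 to 47271487, plus strand, NCBI gene 304005). Its 507, 417 and 358 in si-NC enclosed the 498, 467 and 445 in si-GPD1L (log2 fold change 0.14 with SE 0.12, adjusted p = 0.540 by the same test).

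The feedback genes showed the larger differences. Tnfaip3 (chromosome 1, 14401103 to 14416369, minus strand, NCBI gene 683206) had raw counts of 163, 145 and 196 in si-NC and of 231, 319 and 204 in si-GPD1L. Its normalized counts were 161, 153 and 191 in si-NC and 252, 289.9 and 204 in si-GPD1L, or 169 ± 20.01 against 248 ± 43.3 (SD, n = 3 in each group). All si-GPD1L libraries were above all si-NC libraries, with replicate 3 of si-GPD1L close to replicate 3 of si-NC. The log2 fold change was 0.56 (SE 0.15, 95% confidence interval 0.24 to 0.88, adjusted p = 0.0418 by edgeR's quasi-likelihood test). The call was lost in 5 of 14 alternatives, among them those without si-NC replicate 2 (adjusted p = 0.131), without si-GPD1L replicate 1 (0.154), without si-GPD1L replicate 2 (0.227) and with summed transcript counts (0.078), and the adjusted p ran from 0.00101 to 0.227 over the 14. Without si-GPD1L replicate 3, whose Gpd1l count lay within the si-NC range, the log2 fold change of Tnfaip3 was 0.68 (adjusted p = 0.0256 by the same test). Birc3 encodes an inhibitor-of-apoptosis ubiquitin ligase of the TNF receptor complex (chromosome 8, 6048590 to 6076828, minus strand, NCBI gene 78971). Its normalized counts were 74.1, 77.2 and 89.8 in si-NC and 100.3, 96.3 and 112 in si-GPD1L. The groups did not overlap, but the log2 fold change of 0.35 (SE 0.16, adjusted p = 0.214 by the same test) did not pass. Of the 11 endothelial markers tested, 5 rose as Tnfaip3 did, beside 4.03% of all genes tested, and 6 did not pass the test. The median log2 fold change of the 11 was 0.81, with a range from 0.12 for Flt1 to 1.44 for Plvap. Among those that rose, Pecam1 had 37.0 to 44.9 normalized counts in the control libraries and 61.1 to 89.97 in the others. Pecam1, a defining endothelial marker, Flt1 and Plvap were named after their values were seen. The part of endothelial RNA in the Tnfaip3 difference was not tested.

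Ikbke encodes an IKK-related kinase that phosphorylates IRF factors and so stands between the NF-kB and interferon systems (chromosome 13, 48031325 to 48056394, minus strand, NCBI gene 363984). Its normalized counts were 321, 437 and 416 in si-NC and 423, 451 and 409 in si-GPD1L. The si-GPD1L libraries lay within or just above the upper part of the si-NC range, and the log2 fold change was 0.13 (SE 0.12, adjusted p = 0.553 by edgeR's quasi-likelihood test).

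The intervals show how large a difference these libraries could have missed. The upper end of the 95% confidence interval of the fold change was 1.17 for Nfkb1, 1.25 for Nfkb2, 1.25 for Rela and 1.21 for Relb. For the inhibitors it was 1.299 for Nfkbia, 1.17 for Nfkbib and 1.32 for Nfkbiz. It was 1.30 for Ikbke, 1.62 for Birc3 and 1.84 for Tnfaip3, so that a 2-fold rise lay outside the interval of each of the 10 genes. The lower ends ran from 0.783 for Nfkbib to 1.18 for Tnfaip3. Of the 10 genes, 5 overlap 1 other annotated gene each, none of which had over 12 counts in a library.

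**Figure D4:**
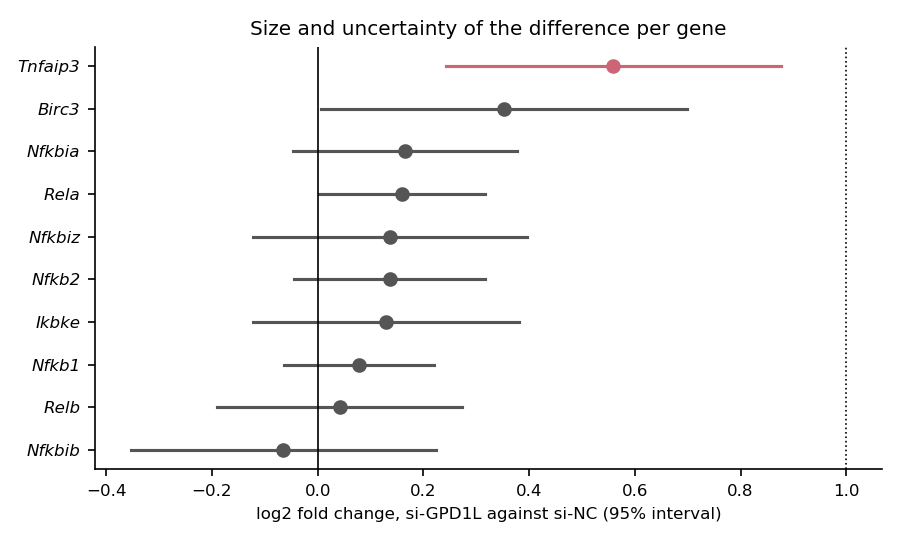
Points are log2 fold changes of si-GPD1L against si-NC with 95% confidence intervals from the edgeR fit, and the dotted line marks a log2 fold change of 1. Tnfaip3 (red) is the only gene past an adjusted p of 0.05, and no interval reaches the dotted line.

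The other genes of the pathway were followed in 4 lists. Of 5 other subunit and IkB genes, all tested, 0 passed the edgeR test, with 1 at an unadjusted p under 0.05 and 0 called by the DESeq2 Wald test or edgeR's exact test. Rel, the subunit of lymphoid cells, had a log2 fold change of 0.18 (adjusted p = 0.670), Nfkbie, the gene of IkB-epsilon, of 0.32 (adjusted p = 0.211) and Bcl3, an atypical IkB, of 0.025 (adjusted p = 0.935), each by edgeR's quasi-likelihood test. In the kinase layer 0 of 12 passed, with 3 at an unadjusted p under 0.05 and 0 called by the other 2 tests, and the median log2 fold change was 0.0082. Beside both lists, 22.4% of all genes tested had an unadjusted p under 0.05 and 6.36% passed the edgeR test. The IKK genes were split in sign, with -0.21 for Chuk, 0.038 for Ikbkb and 0.20 for the regulatory subunit Ikbkg, and Map3k14, the kinase of the non-canonical pathway, was at 0.11. Tbk1, which acts with Ikbke, was at 0.068. The signs of Bcl3, Ikbkb and Tbk1 turned when single libraries were left out.

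Upstream of the kinases, 7 of the 8 listed ligands had at most 9 counts in a library. Ltb had 0 counts in all 6 libraries, which allows up to 3 in each, Tnf had 0 in each si-NC library and at most 1 in a si-GPD1L library, and Il1a and Il1b had at most 5. The exception, named after its values were seen, was Tnfsf12, the ligand of the receptor encoded by Tnfrsf12a, with raw counts of 484, 394 and 409 in si-NC and 389, 435 and 375 in si-GPD1L (log2 fold change -0.12, adjusted p = 0.525 by edgeR's quasi-likelihood test). Of 21 receptor and ligand genes 12 were tested, and 2 rose, beside 4.03% called higher over all genes tested. The DESeq2 Wald test called 2, edgeR's exact test 3, and the fit without a filter on low counts 3. Tlr3, the endosomal receptor for double-stranded RNA, rose from 208 ± 10.7 to 370.3 ± 23.4 normalized counts (± SD over 3 libraries, log2 fold change 0.83 with SE 0.10, adjusted p = 0.000251 by edgeR's quasi-likelihood test). Il1rap, the accessory chain of the interleukin-1 receptor, rose from 205 ± 26.01 to 339 ± 19.1 on the same scale (log2 fold change 0.72 with SE 0.12, adjusted p = 0.00243 by the same test). Neither group overlapped for these 2 genes. The main receptors for interleukin-1 and TNF were not called, with a log2 fold change of 0.103 for Il1r1 (adjusted p = 0.434) and -0.099 for Tnfrsf1a (adjusted p = 0.433), both by the same test. Tnfrsf1b, the gene of the other TNF receptor, was named after its values were seen. It was at 0.36 without overlap of the groups, but was not called (adjusted p = 0.0868 by the same test).

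Among the adaptors and ubiquitin enzymes 1 of 30 tested passed, beside 6.36% of all genes tested. Rnf31, the catalytic subunit of the linear ubiquitin ligase that activates IKK, rose from 367 ± 23.3 to 610.0 ± 27.5 normalized counts (± SD over 3 libraries, log2 fold change 0.73 with SE 0.089, adjusted p = 0.000238 by edgeR's quasi-likelihood test), and all si-GPD1L libraries were at 591.9 or more. The log2 fold changes of Birc2, the paralog of Birc3, of the deubiquitinase gene Cyld and of Tnip1, a partner of Tnfaip3, were 0.029, -0.13 and 0.11, without a call. Tlr3, Il1rap and Rnf31 were called in all 13 alternatives. The promoter windows of Tlr3 and Rnf31 held none of the elements searched, while that of Il1rap held a kappaB match and an ISRE core. Rnf31 ends at 34282385 on chromosome 15, and Irf9, an interferon-stimulated gene that rose by 1.81 on the log2 scale, starts at 34282936 on the same strand. Whether these rises belong to the NF-kB or the interferon response was not tested.

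The transcripts of NF-kB target genes were followed as its output, in mRNA and only at 24 h. The activity of the NF-kB proteins was not measured in these libraries. Of 35 listed target genes 27 were tested, 2 rose and 1 fell, beside 6.36% called over all genes tested. The DESeq2 Wald test called 3 and edgeR's exact test 4. An unadjusted p under 0.05 was found for 9 of the 27, beside 22.4% of all genes tested. The groups did not overlap for 7 of the 27 as higher, beside 15.1% of all genes tested. They did not overlap for 2 as lower, and in either direction for 29% of all genes tested. The median log2 fold change was 0.12. This list was chosen with earlier results of these data known. Targets that also respond to interferon, such as Cxcl10 and Irf1, were held in a separate list. All of the NF-kB genes described above as the core were left out, among them Nfkbia, Tnfaip3 and Birc3. Nfkbie, Bcl3, Traf1 and Tnip1 stand in this list and also in the pathway lists above. The count of calls thus depends in part on how the lists were drawn. Of the 8 listed targets that were not tested, none had over 14 counts in a library, and Csf2 and Csf3 had 0 in all 6. Csf1, the growth factor of macrophages, rose from 3082 ± 198 to 4086 ± 283 normalized counts (± SD over 3 libraries, log2 fold change 0.41 with SE 0.078, adjusted p = 0.00899 by edgeR's quasi-likelihood test), a call lost without si-GPD1L replicate 1 (adjusted p = 0.0748) or replicate 2 (0.0611). Cflar, which blocks caspase activation at death receptors, had 756, 727 and 716 in si-NC and 932, 865 and 876 in si-GPD1L (log2 fold change 0.28, adjusted p = 0.0420 by the same test), a rise that passed in 6 of 13 alternatives and, of the fits without 1 library, in that without si-NC replicate 1. Tslp, an epithelial-type cytokine, fell by 0.78 on the log2 scale (SE 0.19, adjusted p = 0.0324 by the same test), from 128, 96.3 and 128 to 52.3, 76.3 and 75.9. That call was lost without si-NC replicate 3 (adjusted p = 0.0556 by edgeR) and without si-GPD1L replicate 1 (0.143), replicate 2 (0.0868) or replicate 3 (0.0638). The promoter window of Cflar held an ISRE core and no kappaB match, that of Tslp held 2 kappaB matches, and Csf1 had no window. Of the targets without a call, Lif had the smallest adjusted p, with all si-GPD1L libraries above all si-NC libraries. Its log2 fold change was 0.42 (adjusted p = 0.078 by edgeR's quasi-likelihood test), and it was named after its values were seen. The classical inflammatory targets named as fixed anchors gave no call. Ccl2 was at -0.16, Icam1 at -0.088, Sod2 at -0.203 and Vcam1 at -0.0019 on the log2 scale, while Cxcl1 was at 0.33, Ptgs2 at 0.12 and Il6, with 13 to 33 raw counts in a library, at 0.56 (SE 0.34, adjusted p = 0.368 by the same test). The sign of Vcam1 turned in 6 of 13 alternatives, and that of Ccl2 turned without si-NC replicate 1, the library with its highest count. The count of targets called also rested on single libraries. It was 0 without si-GPD1L replicate 1 or without replicate 2, 1 without si-GPD1L replicate 3 or without si-NC replicate 3, and 5 without si-NC replicate 1.

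**Figure D5:**
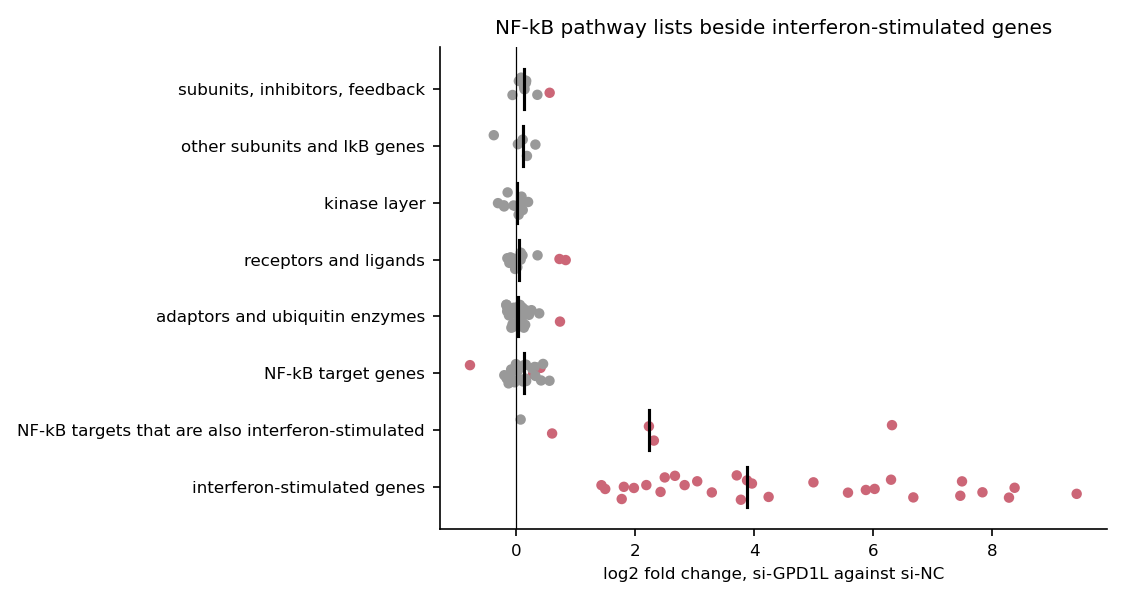
Each point is 1 gene tested, with its log2 fold change on the horizontal axis, red where the adjusted p was under 0.05, and a black bar at the median of the list. The lists of NF-kB genes have medians from 0.0082 to 0.137, the targets shared with interferon a median of 2.23, and the interferon-stimulated genes a median of 3.88.

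The interferon-stimulated genes in the same libraries gave a different picture. All 29 listed genes with a row in the table were called higher, beside 4.03% of all genes tested. The list was chosen with earlier results of these data known, so this count was in part fixed by the choice. The median log2 fold change of the 29 genes was 3.88 and the smallest was 1.43 (Ifit2). Their summed normalized counts were 7451 to 7794 in the control libraries and 49806 to 59075 in the others. Mx2, an antiviral GTPase gene, had 5, 7 and 9 raw counts in si-NC and 4303, 6091 and 4488 in si-GPD1L. Oasl2 and Irf9, the latter the DNA-binding partner of the STAT factors, rose by 4.24 and 1.81 on the log2 scale. A separate list held 9 genes known to respond to both systems, of which 5 were tested and 4 rose. Those not tested, Ccl5, Cxcl9, Cxcl11 and Tnfsf10, had 0 counts in every si-NC library and at most 9 in a si-GPD1L library. Without a filter on low counts, 6 of the 9 were called. Cxcl10 rose by 6.31 on the log2 scale (SE 0.25, adjusted p = 1.94e-09 by edgeR's quasi-likelihood test), from 6, 3 and 2 raw counts in si-NC. The antigen-presentation genes Tap1 and Psmb9 rose by 2.31 and 2.23, and Irf1 rose from 361 ± 25.9 to 546 ± 32.7 normalized counts (± SD over 3 libraries, log2 fold change 0.60 with SE 0.093, adjusted p = 0.00201 by the same test). Cd40, a receptor of the TNF receptor family, was at 0.072 (adjusted p = 0.914 by the same test). The log2 fold change of Tnfaip3, 0.56, was near that of Irf1, and the difference between them was not tested. The difference in response between the NF-kB and the interferon lists was described by these counts and medians and was not tested as a set.

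Over the 6 libraries, the profile of Tnfaip3 was nearest to those of Adcy1, Adgrl4 and Pla2g4f, at root mean square distances of 0.0956, 0.108 and 0.109 on the log2 scale. None of these 3 genes passed the test between the groups (adjusted p = 0.471, 0.157 and 0.364 by edgeR's quasi-likelihood test).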

How the data were processed

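Polyadenylated RNA of 6 libraries was sequenced by the authors. The submitters' processing notes name bcl2fastq, HISAT2 2.1.0, HTSeq 0.12.4 and the build rn6, without the step each made. The authors deposited raw read counts per gene and per transcript, and TPM values per gene. Whether counting used strand is not given in the sources used here. Their tables of fold changes, p-values and GO and KEGG terms were not used.

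Genes were kept by filterByExpr of edgeR 4.0.16 in R 4.3.3 (minimum count 10, minimum total 15) and tested with TMM factors and edgeR's quasi-likelihood test between the 2 groups of 3 libraries, with Benjamini-Hochberg adjustment over all 14852 genes tested. Called means an adjusted p under 0.05. Normalized counts are counts scaled to the mean library size. Depth was 16892255 to 20149732 counts per library, and the floor at 0 counts is 3 counts and covers counting error only. The procedure was tested on simulated counts drawn with the same dispersion for every gene. That simulation does not show how reliable single calls are in these libraries. Alternatives were other scalings and filters, DESeq2 1.42.0, edgeR's exact test, a replicate block, summed transcript counts and leaving out each library. A TPM alternative was chosen after seeing the data.

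The 10 genes and all lists were chosen with earlier results of these data known. Named were the 10 genes, Gpd1l, fixed anchors of each pathway list, up to 3 genes per list and direction of smallest adjusted p, and the 3 genes nearest in profile to the gene of smallest adjusted p. Promoter windows were from RefSeq (GRCr8), of 250 bases before and 50 after the gene start, and were not joined to the rn6 coordinates.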

Additional observations from a re-analysis of the deposited data

How the results depend on the processing

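Of the 10 NF-kB genes, 1 was called in the analysis reported, and 0 were called with the replicate block, with summed transcript counts and with an absolute log2 fold change over 1 required as well. Leaving out each library gave 0 to 1, with 0 without si-NC replicate 2, si-GPD1L replicate 1 or si-GPD1L replicate 2. The median log2 fold change of the 10 genes kept its direction under each alternative run. No pairing of the libraries by replicate number was seen, which does not show that there was none. Correlations of same-numbered deviations were -0.0116, -0.0059 and 0.043, and not every library correlated best with its own number. The fit with the replicate block gave an adjusted p of 0.0616 for Tnfaip3 by edgeR's quasi-likelihood test. The adaptors and ubiquitin enzymes gave 1 to 2 calls when libraries were left out, and the NF-kB targets 0 to 5, with 5 without a filter on low counts. When libraries were left out, log2 fold changes that turned in sign ran from -0.048 to 0.11 for Relb, -0.15 to 0.079 for Nfkbib, -0.096 to 0.12 for Bcl3, -0.024 to 0.083 for Ikbkb, -0.0096 to 0.13 for Tbk1, -0.028 to 0.080 for Birc2, -0.34 to 0.10 for Ccl2 and -0.21 to 0.24 for Vcam1. Vcam1 was also at 0.00019 with edgeR's exact test, 0.00068 with 10 counts in every library and 0.021 with the replicate block. The cause of these changes was not tested. In raw counts, si-NC libraries differed more from each other than si-GPD1L libraries did. The chi-square per degree of freedom was 19.7 and 27.4 for the si-NC pairs with replicate 1, and 8.35 for si-NC replicates 2 and 3. It was 3.89 to 5.81 for the si-GPD1L pairs. With 3 libraries a group and 73 to 112 raw counts, Birc3 was the least deeply covered of the 10 genes.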

Other observations

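On the deposited TPM scale, the libraries of si-GPD1L were above those of si-NC without overlap for 5 of the 10 NF-kB genes, beside 23.04% of all genes tested. The median log2 ratio over all genes was itself shifted to 0.078 on that scale, and the median of the 10 genes was 0.22, or 0.14 relative to the shift.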
